A study of Mus musculus with 28 samples.

Results

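The genes that carry, sense, store and export iron and copper in the liver were followed through the conversion of mouse fibroblasts towards hepatocyte-like cells by a Foxa factor given together with Hnf4a. The set holds 9 genes chosen by name: the plasma carriers Trf (transferrin) and Cp (ceruloplasmin), the iron hormone Hamp (hepcidin) and the iron sensor Tfr2, the uptake receptor Tfrc and the exporter Slc40a1 (ferroportin), the ferritin subunits Fth1 and Ftl1, and the copper pump Atp7b. They are 9 of 23712 genes with a count, and all 9 were among the 16499 genes that passed the filter on low counts. The RNA came from 28 libraries in 9 groups, all of the C57BL/6 strain. MEF (2 libraries) are fibroblasts of embryos taken 13.5 days after conception, and Hep (2 libraries) are hepatocytes freshly isolated with collagenase from livers of 10-week-old adults. The 48h_Foxa1, 48h_Foxa2 and 48h_Foxa3 groups (2 libraries each) are such fibroblasts 48 hours after they received a retrovirus for that Foxa factor and one for Hnf4a. The iHep_Foxa1 (6 libraries), iHep_Foxa2 (4) and iHep_Foxa3 (6) groups are induced hepatocyte-like cells made and maintained with the same pairs. The 48h_Foxa3del2 group (2 libraries) received a Foxa3 mutant named del2 with Hnf4a; its titles give 48 hours, whereas another label places it at the iHep stage, and the residues it lacks are not stated in the sources used here. Every transduced culture carried Hnf4a, and no library with an empty virus or with Hnf4a alone was analysed here, so the Foxa factor, Hnf4a and the virus itself cannot be told apart in any comparison with MEF. The labels do not say that the libraries of a group are separate cultures, so the p-values measure only the spread between these libraries, which may be technical.

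Hepatocytes are the main source of transferrin, which carries ferric iron in plasma, and of ceruloplasmin, a copper-binding ferroxidase that oxidises iron for loading onto transferrin. They also make hepcidin, a peptide hormone that binds ferroportin, the only known cellular iron exporter, and causes its degradation. Most cells take up iron through transferrin receptor 1, the product of Tfrc, whereas transferrin receptor 2 acts mainly in hepatocytes and erythroid cells as a sensor of iron-loaded transferrin that raises hepcidin. Iron inside the cell is kept in ferritin, a shell of heavy (Fth1) and light (Ftl1) subunits, and excess copper is pumped into ceruloplasmin and bile by Atp7b, the gene mutated in Wilson disease.

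Part of this system is controlled after transcription by iron-responsive elements, hairpins in the mRNA that the iron regulatory proteins IRP1 (Aco1) and IRP2 (Ireb2) bind when iron is short. Bound in the 5′ UTR they block translation, and bound in the 3′ UTR they protect the mRNA from decay. The pattern searched was a bulged C, a stem of 5 base pairs and a loop of 6 bases that starts with CAGTG, in the GENCODE vM21 transcripts linked to the RefSeq accessions of the files. Of 20512 coding genes searched, 18 (0.0878%) hold it in the 5′ UTR and 106 (0.517%) in the 3′ UTR. Among the 9 genes it was found in Tfrc, Slc40a1, Fth1 and Ftl1, and not in the searched transcripts of Trf, Cp, Hamp, Tfr2 or Atp7b. The elements are shown because those in a 5′ UTR are known to act on translation and those in a 3′ UTR on mRNA decay. Protein was not measured for any member. Each run is 30 bases of mRNA written as DNA, 5′ to 3′, with the loop in capitals, and positions are those of GRCm38, not of the mm9 build named for the deposited files.
Tfrc 3′ UTR element 1 (chr16:32631219-32631248, plus strand): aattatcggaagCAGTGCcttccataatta
Tfrc 3′ UTR element 2 (chr16:32631598-32631627, plus strand): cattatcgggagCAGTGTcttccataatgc
Tfrc 3′ UTR element 3 (chr16:32631663-32631692, plus strand): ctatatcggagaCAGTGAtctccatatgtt
Tfrc 3′ UTR element 4 (chr16:32631710-32631739, plus strand): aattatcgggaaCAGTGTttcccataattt
Slc40a1 5′ UTR element (chr1:45925464-45925493, minus strand): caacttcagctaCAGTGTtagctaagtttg
Fth1 5′ UTR element (chr19:9982732-9982761, plus strand): ttcctgcttcaaCAGTGCttgaacggaacc
Ftl1 5′ UTR element (chr7:45459778-45459807, minus strand): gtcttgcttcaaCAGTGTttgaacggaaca
The Tfrc loops start 895, 1274, 1339 and 1386 bases after the stop codon, and those of Slc40a1, Fth1 and Ftl1 lie 218, 126 and 164 bases before the start codon. A match is a description of the sequence and no binding was measured.

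Between 14592820 and 51743266 reads were assigned to transcripts per library. Levels are given as CPM on the TMM scale, counts divided by a library size that TMM adjusts so that most genes agree between libraries, and levels of different genes are compared only as FPKM, which also divides by transcript length. A ratio of 2 genes in CPM is compared between libraries, and its own value says nothing of which gene has more transcripts. The Hep libraries were scaled from 15658619 and 14592820 reads to 8170000 and 8030000. On library totals instead of TMM the median log2 difference of all genes moved from -0.29 to -1.11 in Hep against MEF and from 0.39 to 0.42 up to 1.34 to 1.39 in the 3 comparisons of iHep with Hep. Libraries also fell apart by the small nuclear RNA Rn7sk: 14 held 19.0 to 77.4 CPM (all 48h libraries with a full-length Foxa, iHep_Foxa1 replicates 4 to 6 and iHep_Foxa3 replicates 2 to 6) and 14 held 0 to 3.29 CPM (the rest). Both are called the high and the low Rn7sk set below, and where a whole group lies in 1 set, group and set cannot be told apart. The labelled cell types carried their markers. The 9 fibroblast markers summed to 37700 to 38600 CPM in MEF, to 64.3 to 457 CPM in the iHep groups and to 55.3 to 88.9 CPM in Hep. The 11 hepatocyte markers summed to 13.9 to 16.7 CPM in MEF, to 2330 to 38800 CPM in the iHep groups and to 218000 to 235000 CPM in Hep.

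Adult hepatocytes and fibroblasts differed in nearly the whole set. Of the 9 members, 8 were higher in Hep than in MEF by edgeR's quasi-likelihood test at an adjusted p under 0.05, against 56.9% of all tested genes called in either direction and 24.3% called higher. The median log2 fold change was 7.91 over the members and -0.29 over all genes. In iHep_Foxa1, iHep_Foxa2 and iHep_Foxa3, 6, 5 and 6 members were called against MEF, where 39.9%, 30.7% and 46.6% of all genes were called. In each of the 3, Slc40a1 was the one member that fell, and Trf, Cp, Fth1 and Atp7b were among those that rose. Against Hep, 7, 6 and 7 members were called in iHep_Foxa1, iHep_Foxa2 and iHep_Foxa3, where 60.1%, 60.6% and 61.9% of all genes were called. Of these, 6, 6 and 7 members were lower in iHep, against 24.8%, 25.4% and 26.7% of all genes. The member above Hep was Tfrc in iHep_Foxa1. The comparisons with MEF share the 2 MEF libraries, and those with Hep share the 2 Hep libraries.

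**Figure D1:**
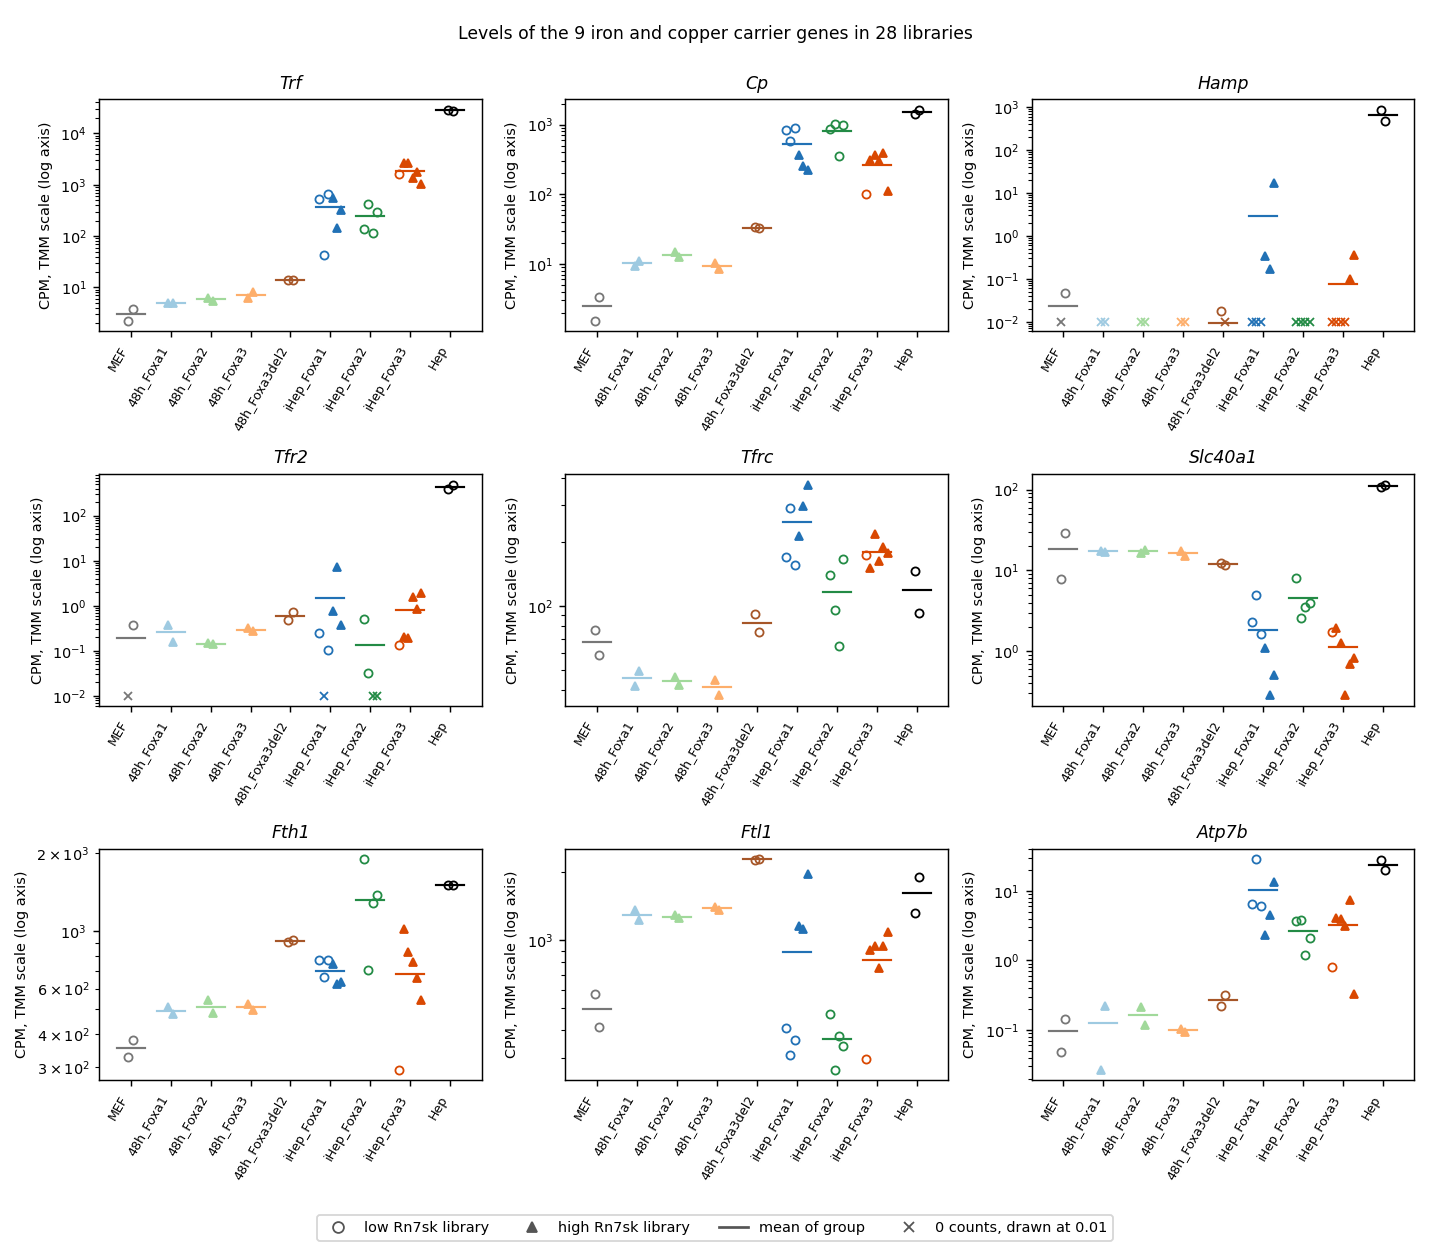
CPM of each of the 9 genes in each of the 28 libraries, on a log axis, with groups along the x axis. Filled triangles and open circles are libraries of the high and low Rn7sk sets, crosses at the bottom of an axis are libraries with no count, and lines are group means. Trf, Cp and Atp7b climb from MEF to iHep to Hep, Hamp and Tfr2 are high in Hep alone, and Slc40a1 is lowest in the iHep groups.

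Transferrin was the carrier with the widest range. Trf stood at 2.25 and 3.85 CPM in MEF and at 28480 and 27570 CPM in Hep. At 48 hours it was at 4.94 and 5.06 CPM with Foxa1, 6.19 and 5.55 CPM with Foxa2, and 6.36 and 8.08 CPM with Foxa3. All 6 of these libraries lay above both MEF libraries, but in none of the 3 comparisons did Trf pass the test. In the iHep groups Trf ran from 43.5 to 668 CPM (median 427) with Foxa1, from 1014 to 2679 CPM (median 1669) with Foxa3, and stood at 138, 424, 117 and 292 CPM with Foxa2. No iHep library overlapped MEF, 48h or Hep libraries, and every iHep_Foxa3 library lay above every library of the other two iHep groups. In Hep, Trf exceeded MEF by a log2 fold change of 13.16 (SE 1.26; adjusted p = 1.4e-08). In iHep it rose over MEF by 6.94 (SE 0.97; adjusted p = 7.87e-06) with Foxa1, 6.31 (SE 0.95; adjusted p = 3.19e-05) with Foxa2 and 9.23 (SE 1.07; adjusted p = 6.02e-07) with Foxa3. Even so, iHep_Foxa3 cells stayed 15.3-fold below Hep (adjusted p = 3.15e-06), iHep_Foxa1 cells 74.4-fold (adjusted p = 9.56e-09) and iHep_Foxa2 cells 116-fold.

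Ceruloplasmin differed from transferrin in how near iHep cells came to hepatocytes and in how the iHep_Foxa2 and iHep_Foxa3 groups compared. Cp was at 1.53 and 3.38 CPM in MEF and at 1424 and 1616 CPM in Hep, a log2 fold change of 9.27 (SE 0.93; adjusted p = 2.88e-08). At 48 hours Cp stood at 9.29 and 11.1 CPM with Foxa1, 14.9 and 12.4 CPM with Foxa2 and 10.2 and 8.45 CPM with Foxa3, all above both MEF libraries. With Foxa2 this was the only member called at 48 hours in any of the 3 groups, at a log2 fold change of 2.47 (SE 0.70; adjusted p = 0.0428). The call was lost when any 1 of the 4 libraries was left out, with values from 2.07 to 3.22. The Foxa1 and Foxa3 values were 2.05 (SE 0.69; adjusted p = 0.0813) and 1.92 (SE 0.69; adjusted p = 0.0975). So 0, 1 and 0 of 9 members were called at 48 hours with Foxa1, Foxa2 and Foxa3, against 5.25%, 5.48% and 5.21% of all genes. At an unadjusted p under 0.05 there were 2 members in each, DESeq2's Wald test called 1 in each, and limma on log2(FPKM + 1) called 0 in each. A fit on the 4 libraries compared alone called 4, 4 and 4 members, Cp and Ftl1 among them in each, and 39.7%, 39.7% and 40.2% of all genes. Between pairs of these 48h groups 0 of 9 members were called by edgeR and 0 by DESeq2, with 0 at an unadjusted p under 0.05, against 0.00606%, 0.0121% and 0.0121% of all genes for Foxa1 against Foxa2, Foxa1 against Foxa3 and Foxa2 against Foxa3.

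In iHep cells Cp ran from 222 to 897 CPM (median 474) with Foxa1 and from 102 to 394 CPM (median 304) with Foxa3, and stood at 854, 1029, 359 and 987 CPM with Foxa2. No iHep library reached either Hep library, and 3 of the 4 iHep_Foxa2 libraries lay above every iHep_Foxa3 library. Cp rose over MEF by a log2 fold change of 7.74 (SE 0.85; adjusted p = 3.84e-07) with Foxa1, 8.36 (SE 0.88; adjusted p = 4.48e-07) with Foxa2 and 6.74 (SE 0.81; adjusted p = 9.21e-07) with Foxa3. Without MEF replicate 2, where Cp was higher, these values became 8.40, 8.99 and 7.45, and that of Hep became 10.04. Against Hep, Cp was 2.9-fold lower with Foxa1 (adjusted p = 0.00997) and 5.77-fold lower with Foxa3, and it was not called with Foxa2. The Foxa1 call was lost without Hep replicate 2 (log2 value -1.45) and on library totals (-0.59). Within iHep_Foxa1, the 3 low-set libraries held 580 to 897 CPM and the 3 high-set libraries 222 to 369 CPM, so the sets did not overlap.

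**Figure D2:**
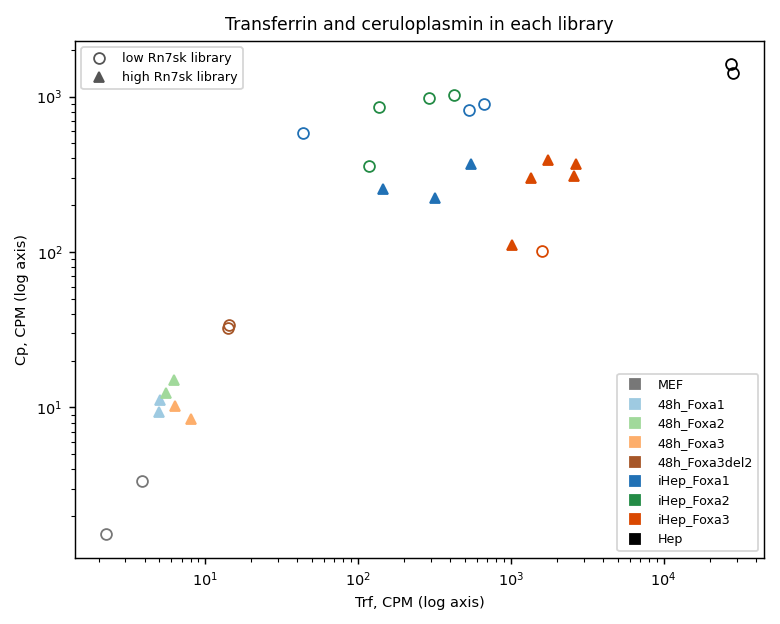
Trf CPM (x axis) against Cp CPM (y axis) in each of the 28 libraries, both on log axes, with one point per library, colours for groups, and filled triangles or open circles for the high and low Rn7sk sets. The iHep_Foxa3 libraries sit at 1014 to 2679 CPM of Trf and 102 to 394 CPM of Cp, whereas the iHep_Foxa2 libraries sit at 117 to 424 CPM of Trf and 359 to 1029 CPM of Cp.

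Between iHep_Foxa2 and iHep_Foxa3 the 2 carriers differed in opposite directions. In that comparison, 5 of 9 members were called, 3 higher and 2 lower with Foxa2, against 31.1% of all genes. Trf was 7.55-fold lower with Foxa2 (log2 -2.92, SE 0.56, adjusted p = 0.00124), and Cp was 3.06-fold higher (log2 1.61, SE 0.41, adjusted p = 0.00682). With the Rn7sk set as a term in the model the Cp value was 0.95 and not called. All 4 iHep_Foxa2 libraries are in the low set and 5 of the 6 iHep_Foxa3 libraries in the high set, so this comparison leans on the 1 low-set iHep_Foxa3 library, which held 1587 CPM of Trf and 102 CPM of Cp. Neither carrier was called between iHep_Foxa1 and iHep_Foxa2. Between iHep_Foxa1 and iHep_Foxa3 only Trf was called, 1 of 9 against 8.32% of all genes, 4.86-fold lower with Foxa1 (log2 -2.28, SE 0.46, adjusted p = 0.00585). In the low set alone the value was -1.92 and not called. Whether the iHep-to-48h change of a member differed between Foxa factors was tested in 27 interaction terms, of which 0 were called and 2 reached an unadjusted p under 0.05. One of these was Trf, Foxa2 minus Foxa3, with a log2 difference of -2.62 (adjusted p = 0.332). The terms for Hamp could not decide the question, as the full-length libraries of the earlier stage held no Hamp count. The share of all genes called in these terms is not reported here. The absence of calls therefore does not show that the members changed alike with each factor.

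The base sequence before a Cp start site is shown because Foxa factors were given to these cells. Cp was the member called at 48 hours, with Foxa2, a call lost when any 1 library was left out. The RefSeq promoter table, 250 bases before to 50 after each start on GRCm38.p6, holds 7 of the 9 members; Trf and Slc40a1 were not in it. The FOXA heptamer TGTTTAC was searched on both strands, along with the form TATTTAC, the form TGTTTGC and the form TATTTGC, and at least one of them occurs in 13.5% of 32851 promoters of the same length. Cp was the only one of the 7 genes with a match, 97 bases before 1 of its listed starts, in capitals here. The window of the other listed Cp start (chr3:19956804-19957103) held 0 FOXA and 0 C/EBP matches. No binding was measured, and a link between the match and the Cp level was not tested.
Cp FOXA window (chr3:19957141-19957170, plus strand): ttggaaaatgcTATTTGCtttaaagaaatt
A C/EBP match (TTGCNNAA, in 10.8% of promoters) lies downstream of the FOXA match, 70 bases before the same start.
Cp C/EBP window (chr3:19957168-19957197, plus strand): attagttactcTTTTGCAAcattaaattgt
The HNF4 motif searched (CAAAGNNCA, in 6.36% of promoters) matched in 1 of these 7 genes, Atp7b, directly after its start site, and in none of them before the start.

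Hepcidin was measured in quantity in Hep alone. Hamp stood at 851 and 484 CPM in Hep, 10840 counts in all, and at 0 and 0.0476 CPM in MEF, the latter a single count. All 6 full-length 48h libraries and all 4 iHep_Foxa2 libraries held no count, and the 48h_Foxa3del2 libraries held 0.0182 CPM, again a single count, and 0. Hep was 28000-fold above MEF, with a 95% counting interval from 5030 to 1110000 that covers counting error only, and at least 26400-fold above iHep_Foxa2, taking 3 counts over the group as the limit that a count of 0 allows. In iHep_Foxa1 Hamp was at 0, 0, 0, 0.348, 0.171 and 16.9 CPM, and in iHep_Foxa3 at 0, 0, 0, 0, 0.0997 and 0.361 CPM. The libraries with counts were all of the high Rn7sk set, and 1 library, iHep_Foxa1 replicate 6, held nearly all of that group's 414 counts. Against Hep, iHep_Foxa1 was lower by a log2 difference of -7.84 (SE 1.52; adjusted p = 0.000304), which became -12.71 without replicate 6, and iHep_Foxa3 was lower by -13.05 (SE 1.92). The near-identical copy Hamp2 stood at 933 ± 452 CPM (SD, n = 2) in Hep and at 0.0718 CPM in MEF, so how reads were divided between the 2 copies is uncertain.

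The 250 bases before the Hamp start site are shown because hepcidin transcription is known to answer to iron through BMP signals and to inflammation through STAT3. The capitals are the BMP response element core GGCGCC, 109 bases before the start, and a STAT match (TTCNNNGAA), 97 bases before it. These letters occur in 11.9% and 8.3% of all promoters of 300 bases, on both strands, and GGCGCC was also found 89 bases before a listed Tfrc start.
Hamp upstream (chr7:30944030-30944279, minus strand): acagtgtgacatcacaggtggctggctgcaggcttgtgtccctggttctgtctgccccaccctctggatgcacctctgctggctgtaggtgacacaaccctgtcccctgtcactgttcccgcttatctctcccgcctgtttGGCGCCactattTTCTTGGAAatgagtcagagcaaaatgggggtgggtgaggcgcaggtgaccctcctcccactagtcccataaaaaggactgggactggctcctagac
The other genes of this control were taken as a list of 20. Against MEF, 4 were higher and 9 lower in Hep, with a median log2 fold change of -0.81 against -0.29 over all genes. The share called was 65%, near the 56.9% of all genes. Tmprss6 and Hjv were, like Hamp, near 0 outside Hep. Tmprss6, the protease that cuts hemojuvelin and so lowers hepcidin, stood at 527 ± 8.19 CPM in Hep (SD, n = 2), 0.0952 CPM in MEF, and 0.0793, 0.182 and 0.109 CPM in iHep_Foxa1, iHep_Foxa2 and iHep_Foxa3. Hjv, the BMP co-receptor hemojuvelin, was at 178 ± 62.4 CPM in Hep and at 0.279, 0.00893 and 0.00551 CPM in the iHep groups. Hfe, which acts with Tfr2, was at 62.6 ± 2.56 CPM in Hep and at 2.68, 2.44 and 2.40 CPM in the iHep groups, lower in each (largest adjusted p = 5.31e-08). The BMP target Id1 went the other way, at 246 ± 192, 70.4 ± 15.7 and 301 ± 192 CPM in the iHep groups (n = 6, 4 and 6) against 11.4 ± 7.65 CPM in MEF and 2.03 ± 0.587 CPM in Hep (n = 2 each). Id1 was higher in all 3 iHep groups than in MEF (adjusted p = 0.000651, 0.0218 and 0.000329). Between iHep_Foxa2 and iHep_Foxa3, 9 of the 20 were higher with Foxa2 and 1 was lower, 50% of the list against 31.1% of all genes. Those higher with Foxa2 included the ligand Bmp6, at 15.7 ± 12.4 against 0.616 ± 0.495 CPM. They also included the inhibitors Smad6 (55.0 ± 21.8 against 6.99 ± 3.14 CPM) and Smad7 (55.1 ± 9.16 against 21.6 ± 9.58 CPM). The one that was lower with Foxa2 was Id1.

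Tfr2, the sensor, had the same restriction as Hamp. It stood at 392 and 488 CPM in Hep and at 0 and 0.381 CPM in MEF, a log2 fold change of 11.14 (SE 2.21; adjusted p = 0.000194). The full-length 48h libraries held 0.141 to 0.374 CPM, the 6 iHep_Foxa1 libraries 0 to 7.34 CPM (median 0.312), the 4 iHep_Foxa2 libraries 0.511, 0.0322, 0 and 0 CPM, and the 6 iHep_Foxa3 libraries 0.132 to 1.95 CPM (median 0.535). Only in iHep_Foxa1 replicate 5 did a library outside Hep pass 2 CPM. Against Hep, Tfr2 was 313-fold lower in iHep_Foxa1 (adjusted p = 2.37e-06), 3290-fold lower in iHep_Foxa2 and 536-fold lower in iHep_Foxa3. Without iHep_Foxa1 replicate 5 the log2 value moved from -8.29 to -10.50, and without iHep_Foxa2 replicate 1 from -11.68 to -14.83. Erythroid cells also make Tfr2, and the 12 erythroid markers summed to 25.8 to 40.9 CPM in Hep with 8 of 12 detected. They summed to 1.01 to 1.81 CPM in MEF. In iHep_Foxa1, iHep_Foxa2 and iHep_Foxa3 the sums were 4.51 to 35.8, 2.48 to 6.28 and 4.99 to 15.1 CPM, with 4, 3 and 4 of 12 detected. The part of erythroid cells in the result was not tested.

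**Figure D3:**
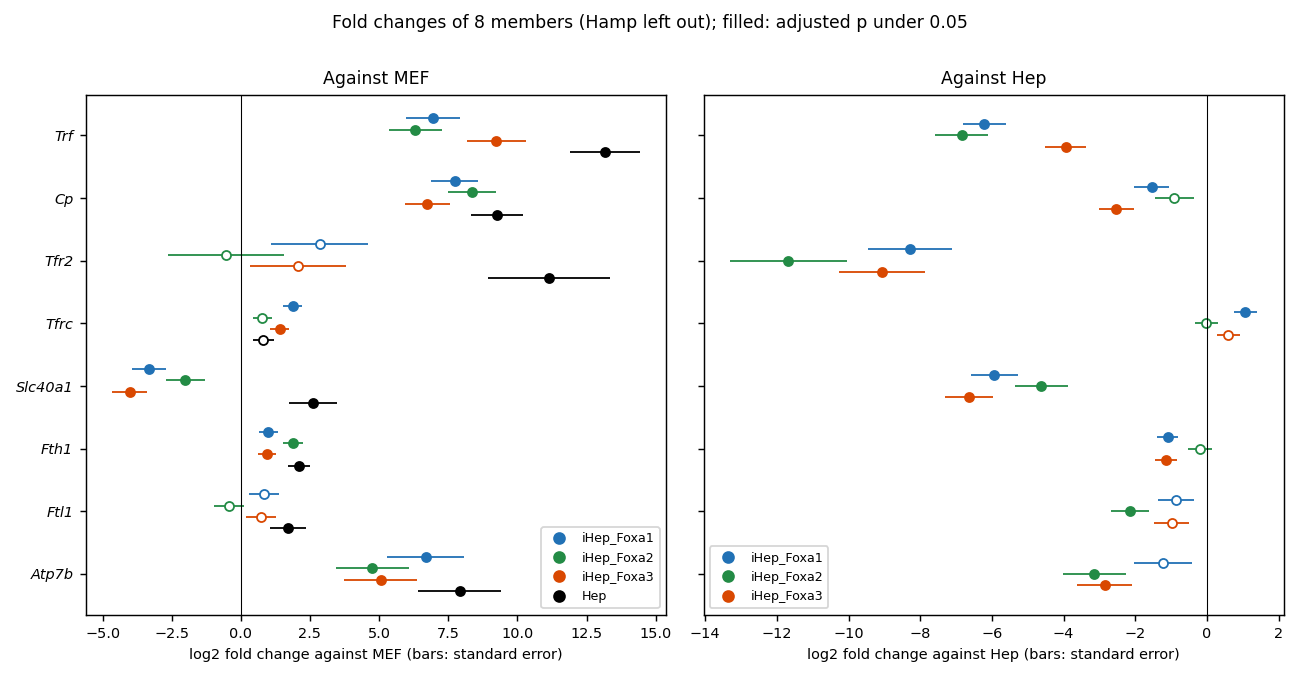
Log2 fold change (x axis) with its standard error for 8 of the genes (all but Hamp) in Hep and the 3 iHep groups against MEF and in the 3 iHep groups against Hep, with filled points where edgeR's adjusted p was under 0.05. Against MEF, Trf and Cp lie at 6.31 or more in all 4 groups, and Slc40a1 lies to the left of 0 in all 3 iHep groups against both MEF and Hep.

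Uptake and export moved in opposite directions between the 48h and the iHep cells. Tfrc, the receptor for iron-loaded transferrin, stood at 77.2 and 58.4 CPM in MEF and at 145 and 92.0 CPM in Hep. These groups did not overlap, but their difference was not called (log2 0.81, SE 0.38, adjusted p = 0.0726), and on library totals it was -0.02, where the median of all genes was -1.11. It was called with DESeq2 size factors (0.96, edgeR adjusted p = 0.0395) and by DESeq2's Wald test (0.96, adjusted p = 0.0313). The edgeR fit on the compared groups alone also called it (0.92, adjusted p = 0.024). With limma on log2(FPKM + 1) it was -0.04 and not called. At 48 hours Tfrc stood at 41.8 and 49.4 CPM with Foxa1, 46.3 and 42.3 CPM with Foxa2 and 44.8 and 37.8 CPM with Foxa3, each library below both MEF libraries, with 0 of the 3 differences called. In iHep cells it ran from 157 to 373 CPM (median 252) with Foxa1 and from 151 to 218 CPM (median 176) with Foxa3, and stood at 140, 95.5, 64.6 and 167 CPM with Foxa2. Every iHep_Foxa1 and iHep_Foxa3 library was above both MEF libraries and above both Hep libraries, whereas iHep_Foxa2 overlapped both groups. Tfrc rose over MEF 3.68-fold with Foxa1 (log2 1.88, SE 0.34, adjusted p = 0.000176) and 2.64-fold with Foxa3 (log2 1.40, SE 0.33, adjusted p = 0.0017). The latter call was lost without MEF replicate 2, at 1.24. With Foxa2 the value was 0.78 (SE 0.34; adjusted p = 0.0822).

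Against the 48h cells of the same factor the Tfrc rise was called in all 3 lines of conversion. In these comparisons 5, 7 and 5 of 9 members were called for Foxa1, Foxa2 and Foxa3, against 42%, 40.1% and 40.6% of all genes. For Foxa1, Foxa2 and Foxa3 in turn, Trf rose by log2 fold changes of 6.23, 5.37 and 7.98, Cp by 5.68, 5.88 and 4.82, and Atp7b by 6.26, 3.99 and 5.0. The Atp7b call with Foxa2 was lost without 48h replicate 1 (4.47) or 2 (3.52). With limma on log2(FPKM + 1) the Atp7b rise was 0.61 with Foxa2 and 0.70 with Foxa3, and neither was called. Tfrc rose 5.48-fold with Foxa1 (adjusted p = 1.41e-05), 2.63-fold with Foxa2 and 4.33-fold with Foxa3, and the Foxa2 call was lost without 48h replicate 2 (log2 1.23). In iHep_Foxa1 Tfrc was also the one member above Hep, 2.11-fold (log2 1.07, SE 0.33, adjusted p = 0.0072). That call was lost without Hep replicate 2 (0.78), in the low set alone (0.70) and with the 2 groups fitted alone (0.94). Between iHep groups, 2 of 9 members were called for Foxa1 against Foxa2, where 11% of all genes were, and Tfrc was one of them, 2.14-fold higher with Foxa1 (log2 1.10, SE 0.25, adjusted p = 0.0157). All iHep_Foxa2 libraries are of the low set, and this call was lost with the set as a term (0.91), in the low set alone (0.80), with the replicate block (0.99) and with the 2 groups fitted alone (1.15). The interaction of factor and stage for Tfrc, Foxa1 minus Foxa2, was 1.06 (adjusted p = 0.853). The 8 proliferation markers, taken along because dividing cells are known to carry more Tfrc, summed to 625 to 717 CPM in MEF, 1210 to 1260 CPM in the full-length 48h groups, 380 to 1180 CPM in iHep and 89.8 to 106 CPM in Hep; their part in the result was not tested.

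Ferroportin was the member that fell in all 3 iHep groups. Slc40a1 stood at 7.80 and 28.7 CPM in MEF, and at 109 and 115 CPM in Hep. In the full-length 48h libraries it ran from 15.3 to 17.8 CPM, inside the range of the 2 MEF libraries. In iHep cells it ran from 0.285 to 5.02 CPM (median 1.37) with Foxa1 and from 0.290 to 1.93 CPM (median 1.04) with Foxa3, and stood at 8.14, 2.58, 3.53 and 3.96 CPM with Foxa2. Every iHep library was below every 48h library, and every iHep library except iHep_Foxa2 replicate 1 was below both MEF libraries. Slc40a1 fell against MEF 9.98-fold with Foxa1 (log2 -3.32, SE 0.63, adjusted p = 0.000248), 4.02-fold with Foxa2 (log2 -2.01, SE 0.70, adjusted p = 0.0324) and 16.2-fold with Foxa3 (log2 -4.02, SE 0.63, adjusted p = 2.71e-05). Against the tighter 48h groups it was 9.37-fold, 3.77-fold (adjusted p = 0.0326) and 14.5-fold lower. Against Hep it was 61.1-fold (adjusted p = 6.94e-08), 24.6-fold and 99.3-fold lower. It was 4.04-fold higher with Foxa2 than with Foxa3 (adjusted p = 0.0104), a value that was 0.60 with the Rn7sk set as a term and 1.42 in the low set alone on the log2 scale, neither of them called, against 2.01.

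The size of the fall from MEF rested on MEF replicate 2. Without that library the Foxa1 and Foxa3 values were -2.10 and -2.77, without MEF replicate 1 they were -4.0 and -4.67, and both stayed called. Without iHep_Foxa1 replicate 2 the Foxa1 value was -3.94. With Foxa2 the value without MEF replicate 2 was -0.83 and not called, and the call was also lost without iHep_Foxa2 replicates 2, 3 or 4 (-1.81, -1.90 and -1.95) and in the fit with replicate numbers as a block (-1.37, and -1.33 against 48h_Foxa2). Leaving out 1 library at a time, the call of iHep_Foxa2 against 48h_Foxa2 was lost in 5 of 6 cases, with values from -1.72 to -1.97. MEF replicate 2 also held more macrophage RNA: the 10 macrophage and Kupffer cell markers with a count summed to 239 CPM there and to 18.4 CPM in MEF replicate 1, with Clec4f, Vsig4 and Timd4 at 0. They summed to 490 and 356 CPM in Hep with 10 of 10 detected, and to 2.07 to 4.17 CPM in the full-length 48h groups. In 48h_Foxa3del2 they summed to 25.3 to 28.3 CPM, and in iHep to 0 to 1.1 CPM. Macrophages are rich in ferroportin, and in such bulk samples fewer cells of a type and less RNA per cell cannot be told apart; their part in the result was not tested. The full-length 48h groups, with markers near 0, held 15.3 to 17.8 CPM of Slc40a1, but they differ from MEF in treatment and in Rn7sk set. The macrophage share of Slc40a1 in MEF cannot be read from them. The rise in Hep over MEF was 6.12-fold (log2 2.61, SE 0.88, adjusted p = 0.0147), 3.93 on the log2 scale without MEF replicate 2, and not called without MEF replicate 1 (2.03) or on library totals (1.79).

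Per library, the ratio of Tfrc to Slc40a1 in CPM sums up this shift. It was 2.03 and 9.9 in MEF, 2.37 to 2.94 in the full-length 48h groups and 0.798 and 1.34 in Hep. In iHep it was 57.8 to 1040 with Foxa1 (median 146), 17.2 to 42.1 with Foxa2 and 78.2 to 563 with Foxa3 (median 194). Every iHep library lay above every library of the other groups. The ratio was 57.8 to 95 in the low-set and 197 to 1040 in the high-set iHep_Foxa1 libraries, so the low set alone showed the same order. Both values come from 1 library each and carry no test of their own.

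**Figure D4:**
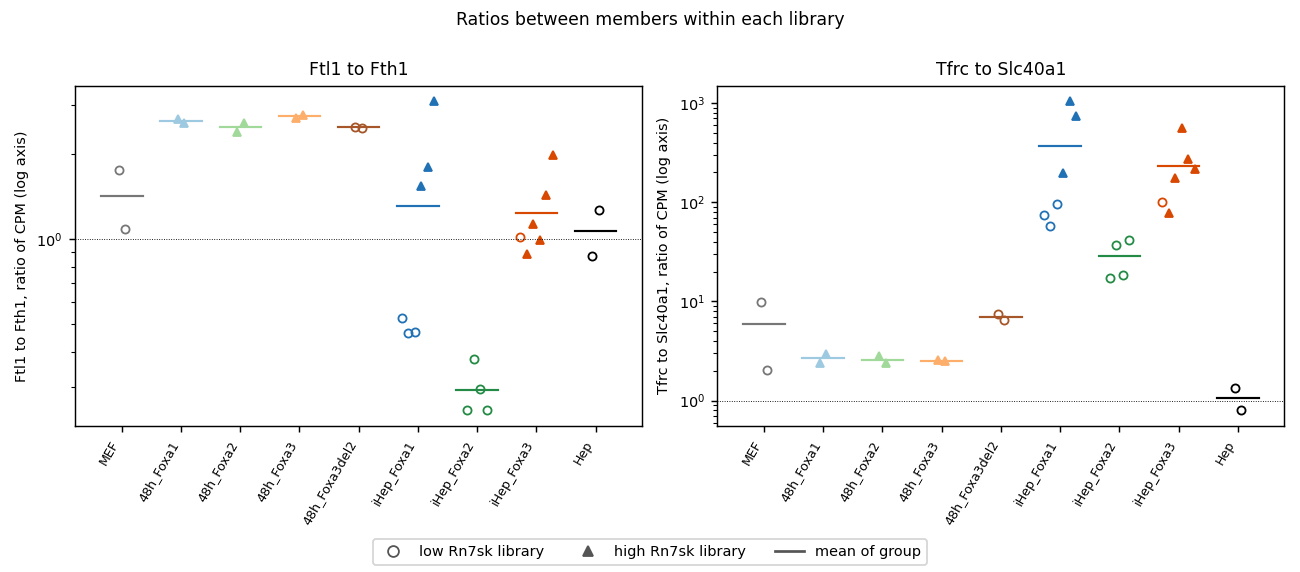
Ratio of Tfrc to Slc40a1 and ratio of Ftl1 to Fth1, both from CPM and on log axes, in each of the 28 libraries by group, with one point per library, filled triangles or open circles for the high and low Rn7sk sets, and lines at the group means. The Tfrc to Slc40a1 ratio is 17.2 or more in all iHep libraries and 9.9 or less in all others, and the Ftl1 to Fth1 ratio splits the iHep_Foxa1 libraries by Rn7sk set.

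Ferritin RNA was abundant in every group and moved less than the carriers. Fth1, the heavy subunit that oxidises iron on entry, stood at 328 and 381 CPM in MEF and at 1508 and 1503 CPM in Hep, a 4.25-fold difference (log2 2.09, SE 0.40, adjusted p = 0.000139). At 48 hours it ran from 478 to 541 CPM over the 6 full-length libraries, each above both MEF libraries, with no call. In iHep cells Fth1 ran from 624 to 774 CPM (median 708) with Foxa1 and from 292 to 1022 CPM (median 707) with Foxa3, and stood at 1889, 707, 1287 and 1372 CPM with Foxa2. All iHep libraries lay above MEF except iHep_Foxa3 replicate 1, which was the lowest library of all 28, and 1 iHep_Foxa2 library lay above Hep. Fth1 rose over MEF 1.98-fold with Foxa1 (adjusted p = 0.0228), 3.71-fold with Foxa2 (adjusted p = 0.000466) and 1.93-fold with Foxa3 (adjusted p = 0.0241). The Foxa1 call was lost without MEF replicate 1 (log2 0.88) or 2 (1.11), and the Foxa3 call likewise (0.86 and 1.09). In the low set alone, where iHep_Foxa3 has only replicate 1, the Foxa3 value was -0.32. Against Hep, Fth1 was 2.14-fold lower with Foxa1 (adjusted p = 0.00312) and 2.2-fold lower with Foxa3 (adjusted p = 0.00219), but on library totals these differences were -0.15 and -0.16 on the log2 scale and not called. Fth1 was higher with Foxa2 than with Foxa1 (1.87-fold, adjusted p = 0.0267) and than with Foxa3 (1.92-fold, adjusted p = 0.00771). It was also 2.57-fold higher in iHep_Foxa2 than in 48h_Foxa2 (adjusted p = 0.00478), a call lost without 48h replicate 2 (log2 1.17). The difference between Foxa1 and Foxa2 was lost without any 1 of 5 libraries (iHep_Foxa1 replicate 5 or 6, iHep_Foxa2 replicate 1, 3 or 4), with log2 values for Foxa1 against Foxa2 from -0.67 to -0.91. All iHep_Foxa2 libraries are of the low set. The same call was also lost with the set as a term (-1.05), in the low set alone (-0.84) and with the 2 groups fitted alone (-0.86). That of Foxa2 against Foxa3 was lost with the 2 groups fitted alone (log2 0.92).

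The light subunit, Ftl1, which helps to lay down the iron core, split by Rn7sk set among the libraries with a full-length Foxa, though not beyond them. It stood at 577 and 413 CPM in MEF, and at 1235 to 1404 CPM in the 6 full-length 48h libraries, all of the high set. In iHep_Foxa1 the 3 low-set libraries held 408, 312 and 363 CPM and the 3 high-set libraries 1160, 1124 and 1962 CPM. In iHep_Foxa3 the low-set library held 297 CPM and the 5 high-set libraries 753 to 1084 CPM, while the 4 iHep_Foxa2 libraries, all of the low set, held 267 to 470 CPM. No transduced full-length library of the low set reached any of the high set, so Ftl1 differences between such groups that differ in set cannot be told apart from the set. The low-set libraries of 48h_Foxa3del2, at 2279 and 2290 CPM, were the highest of all 28. Ftl1 was not called against MEF at 48 hours (log2 1.39, 1.37 and 1.49, each SE 0.65, for Foxa1, Foxa2 and Foxa3) or in iHep (0.84, -0.44 and 0.73). With the set as a term the 48h values became -0.46, -0.48 and -0.36, and the iHep_Foxa1 and iHep_Foxa3 values -0.39 and -0.91. Its fall with Foxa2 from 48h to iHep (3.5-fold, adjusted p = 0.00983) and its lower level with Foxa2 than with Foxa3 (2.25-fold, adjusted p = 0.0407) were values between sets. With the set as a term they were 0.04 and 0.47. The first call was lost without 48h replicate 1 (-1.79), and the second without any 1 of 8 of the 10 libraries (-1.05 to -1.20). In Hep, Ftl1 was at 1319 and 1908 CPM, 3.26-fold above MEF (log2 1.71, SE 0.65, adjusted p = 0.0299), within the low set. That call was lost without MEF replicate 1 (2.04), MEF replicate 2 (1.58) or Hep replicate 2 (1.42), and on library totals (0.89). Ftl1 was 4.43-fold lower in iHep_Foxa2 than in Hep (adjusted p = 0.00135), also within the low set and not called on library totals (-1.17).

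The ratio of Ftl1 to Fth1, in CPM and so compared only between libraries, was 1.09 and 1.76 in MEF, 0.875 and 1.27 in Hep, 2.40 to 2.76 in the full-length 48h groups, 0.248 to 0.377 in iHep_Foxa2 and 0.885 to 1.99 in iHep_Foxa3. In iHep_Foxa1 it was 0.467 to 0.527 in the low set and 1.55 to 3.08 in the high set, which do not overlap. The files list 2 Fth1 transcripts, and each took 48.8% to 51.2% of the gene's counts in all 28 libraries, an even division in every group. Cp reads were divided among 3 transcripts at 21.9% to 49.9% each. Both genes were tested on the sum of their transcripts, and Ftl1 has processed copies elsewhere in the genome whose reads were not told apart here.

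Atp7b, the copper pump, rose from near 0. It stood at 0.0479 and 0.143 CPM in MEF, at 0.0267 to 0.225 CPM in the full-length 48h libraries and at 27.8 and 20.05 CPM in Hep. In iHep cells it ran from 2.30 to 28.6 CPM (median 6.25) with Foxa1 and from 0.325 to 7.45 CPM (median 3.49) with Foxa3, and stood at 3.69, 3.80, 1.2 and 2.07 CPM with Foxa2. All 16 iHep libraries were above every MEF and 48h library, and iHep_Foxa1 replicate 2, at 28.6 CPM, lay above both Hep libraries. Over MEF, Atp7b rose by a log2 fold change of 7.91 (SE 1.5; adjusted p = 0.000117) in Hep, 6.68 (SE 1.39; adjusted p = 0.000625) in iHep_Foxa1, 4.76 (SE 1.33; adjusted p = 0.00899) in iHep_Foxa2 and 5.05 (SE 1.32; adjusted p = 0.00347) in iHep_Foxa3. These folds rest on a few counts in MEF: without MEF replicate 2 the Hep, iHep_Foxa1 and iHep_Foxa3 values were 8.93, 7.62 and 6.01, and without iHep_Foxa1 replicate 2 the iHep_Foxa1 value was 6.04. The iHep_Foxa2 call was lost without MEF replicate 1 (4.13) or 2 (5.65), and the iHep_Foxa3 call without MEF replicate 1 (4.5) and in the low set alone (2.96). Both calls were also lost with limma on log2(FPKM + 1), at 0.63 for iHep_Foxa2 and 0.70 for iHep_Foxa3. Against Hep, Atp7b was 8.89-fold lower with Foxa2 (adjusted p = 0.00367) and 7.28-fold lower with Foxa3, and was not called with Foxa1 (log2 -1.23, SE 0.80, adjusted p = 0.19). Without iHep_Foxa1 replicate 2 the Foxa1 value was -1.87 and called lower by edgeR (adjusted p = 0.035).

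The other copper genes were taken as a list of 16. In Hep 10 were higher and 2 lower than in MEF, and in iHep_Foxa1, iHep_Foxa2 and iHep_Foxa3 3, 0 and 6 were higher and 2, 1 and 2 lower than in MEF. The shares called, 75.0%, 31.2%, 6.25% and 50%, stand against 56.9%, 39.9%, 30.7% and 46.6% of all genes, so those of the iHep groups were below or near the general share. The cytosolic superoxide dismutase Sod1 stood at 2595 ± 178 CPM in Hep, 168 ± 2.01 CPM in MEF and 318 ± 56.7, 215 ± 38.6 and 310 ± 65.5 CPM in the iHep groups. Its copper chaperone Ccs was at 766 ± 1.07 CPM in Hep and at 78.1 to 81.2 CPM (means) in the iHep groups, and the copper importer Slc31a1 at 618 ± 46.4 CPM in Hep and 58.2 to 84.8 CPM. All of these were lower in iHep than in Hep in the 3 comparisons (largest adjusted p = 1.23e-10). The paralogous pump Atp7a, known from cells outside the liver, was the reverse of Atp7b: 33.1 ± 0.285 CPM in MEF and 7.59 ± 0.694 CPM in Hep (adjusted p = 1.51e-06), and it was higher in iHep_Foxa2 than in Hep (39.2 ± 5.39 CPM, adjusted p = 1.04e-07).

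On the FPKM scale, which permits comparison between genes, the order of the members changed from Hep to iHep. In Hep the mean FPKM was 6438 for Trf, 881 for Ftl1, 867 for Hamp, 695 for Fth1, 191 for Cp, 80.8 for Tfr2, 17.8 for Slc40a1, 12.8 for Tfrc and 2.71 for Atp7b. In iHep_Foxa1 ferritin led, with 930 for Ftl1 and 626 for Fth1, ahead of 170 for Trf, 126 for Cp and 52.0 for Tfrc, and Slc40a1 was at 0.543. The order of the subunits there differed by Rn7sk set, with 378 for Ftl1 and 656 for Fth1 in the low set and 1483 and 595 in the high set. In iHep_Foxa3 Ftl1 was at 873, Trf at 825 and Fth1 at 621, and in its 1 low-set library Trf was at 714 and Ftl1 at 316. In iHep_Foxa2 Fth1 was at 1205, above 197 for Cp and 109 for Trf.

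With the del2 mutant of Foxa3, no difference from 48h_Foxa3 was called in any member. Trf stood at 14.2 and 14.1 CPM, Cp at 34.2 and 32.5 CPM, Tfrc at 91.3 and 75.3 CPM, Fth1 at 908 and 926 CPM and Ftl1 at 2279 and 2290 CPM. Tfr2 was at 0.492 and 0.719 CPM, Atp7b at 0.219 and 0.32 CPM and Slc40a1 at 12.2 and 11.6 CPM. In the test, 0 of 9 members were called against 48h_Foxa3, where 2.98% of all genes were. At an unadjusted p under 0.05 there were 3 (Cp, Tfrc and Fth1), and DESeq2 and limma called 0. The fit on these 4 libraries alone called 7 members and 65.3% of all genes. With the Rn7sk set as a term 3 members were called, and the share of all genes called there is not reported here. The log2 difference was 0.85 for Fth1 (SE 0.39; adjusted p = 0.264) and 0.72 for Ftl1 (SE 0.64; adjusted p = 0.637). Against MEF, 3 of 9 were higher, where 15.8% of all genes were called and 7.78% were called higher: Cp 13.6-fold (log2 3.76, SE 0.74, adjusted p = 0.00201), Fth1 2.59-fold (adjusted p = 0.0215) and Ftl1 4.62-fold (adjusted p = 0.0273). Without MEF replicate 2 the Cp value was 4.5. The calls of Fth1 and Ftl1 were lost without any 1 of the 4 libraries, with log2 values of 1.31 to 1.54 and 2.04 to 2.51, and Trf was at 2.21 (SE 0.82; adjusted p = 0.0674). The del2 libraries are of the low Rn7sk set and 48h_Foxa3 of the high set, so mutant and set cannot be told apart. Their 11 hepatocyte markers summed to 474 to 500 CPM and their 9 fibroblast markers to 7290 to 8780 CPM, against 5.13 to 9.26 and 23200 to 25600 CPM in the full-length 48h libraries.

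Of the 4 remaining iron gene lists, those for haem and for mitochondrial iron were mostly lower in iHep than in Hep. Of 20 haem carrier, synthesis and breakdown genes, 13 were higher and 2 lower in Hep than in MEF, and 15, 14 and 15 were lower and 2 higher in iHep_Foxa1, iHep_Foxa2 and iHep_Foxa3 than in Hep, where 60.1%, 60.6% and 61.9% of all genes were called in either direction and 24.8%, 25.4% and 26.7% lower. Like Trf, the plasma haem carrier Hpx (hemopexin) rose over MEF without reaching Hep, at 82.0 ± 46.2, 35.2 ± 21.7 and 60.8 ± 34.4 CPM in the iHep groups against 0.55 ± 0.509 CPM in MEF and 3303 ± 480 CPM in Hep. Alas1, the first enzyme of liver haem synthesis, stood at 352 ± 177 CPM in Hep and at 39.7, 37.5 and 35.2 CPM in the iHep groups, lower in each (largest adjusted p = 1.17e-09). Of 11 mitochondrial iron and iron-sulfur cluster genes, 7 were higher and 1 lower in Hep than in MEF, and 7 were lower and 0 higher in each iHep group than in Hep. In Hep against MEF, 75% of the haem list and 72.7% of the mitochondrial list were called, against 56.9% of all genes. Against Hep, 63.6% of the mitochondrial list was called in each iHep group, near the share of all genes called in either direction. The scaffold gene Iscu was at 303 ± 38.4 CPM in Hep and at 51.1 to 59.4 CPM (means) in iHep. As the median of all genes lay 0.39 to 0.42 above 0 against Hep, these falls ran against the general direction.

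Of 15 other iron transport genes, 6 were higher and 3 lower in Hep than in MEF, and 4, 4 and 7 were higher and 3, 3 and 2 lower in the iHep groups than in MEF. The shares called, 60%, 46.7%, 46.7% and 60%, stand against 56.9%, 39.9%, 30.7% and 46.6% of all genes. Against Hep 4, 6 and 4 were higher and 5, 5 and 6 lower in iHep_Foxa1, iHep_Foxa2 and iHep_Foxa3. These are shares of 60%, 73.3% and 66.7%, against 60.1%, 60.6% and 61.9% of all genes. Slc39a14, which takes up iron not bound to transferrin, stood at 278 ± 10.4 CPM in Hep and at 43.6 ± 15.0, 58.3 ± 9.64 and 88.0 ± 22.7 CPM in the iHep groups, lower than Hep in each. Scara5, a receptor reported to bind ferritin, was at 0 in both Hep libraries, at 10.2 ± 4.51 CPM in MEF and at 102 ± 130, 308 ± 62.6 and 131 ± 82.6 CPM in the iHep groups, higher than MEF in each (adjusted p = 0.0221, 0.00481 and 0.0119). Lcn2, which carries bacterial iron chelators, was at 0 in MEF and at 65.5 ± 58.2, 102 ± 40.4 and 24.5 ± 15.5 CPM in the iHep groups. Of 8 iron sensing and ferritin turnover genes, 3 were higher and 2 lower in each iHep group than in MEF, and 1, 1 and 2 were higher and 3, 3 and 1 lower than in Hep. The share called against MEF was 62.5% in each, against the 39.9%, 30.7% and 46.6% of all genes. Against Hep the shares were 50%, 50% and 37.5%, below the 60.1%, 60.6% and 61.9% of all genes. For Ncoa4 and Aco1 the comparisons that follow are with MEF. Ncoa4, which delivers ferritin for degradation, was higher in each (266 ± 32.9, 187 ± 30.3 and 372 ± 49.7 CPM against 103 ± 14.5 CPM). Aco1, the source of IRP1 that binds the hairpins of Tfrc, Slc40a1 and ferritin, stood at 375 ± 45 CPM in Hep, 76.2 ± 1.46 CPM in MEF and 52.4 ± 8.16, 44.7 ± 2.88 and 50.5 ± 6.43 CPM in iHep, lower than MEF in each (adjusted p = 0.0037, 0.000424 and 0.00143). Only RNA was measured, so neither IRP binding nor ferritin and ferroportin protein is known.

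Across the 28 libraries the genes most like each member were found by Pearson's r of log2(CPM + 0.5), as a description in which groups, depth and Rn7sk set are shared. The closest to Trf were Slc47a1 (r = 0.951), Prodh (0.948) and Hacd3 (0.946), and to Cp Map3k5 (0.958), Glul (0.953) and Sdc4 (0.95). The closest to Hamp were Ces1d (0.991), Hamp2 (0.983) and Ces1c (0.982), and to Tfr2 Gnat1 (0.969), Fbp1 (0.967) and Cyp8b1 (0.966). The closest to Tfrc were Retreg1 (0.93), C1galt1c1 (0.914) and Cox7a1 (0.913), and among the closest to Slc40a1 were Macrod2 (0.944) and Ghr (0.939). Among the closest to Fth1 were Paics (0.87) and Fmo2 (0.85), and Mtus1 (0.918) was among the closest to Atp7b. The closest to Ftl1 were Tm2d2 (0.933), Wdr18 (0.931) and H2bc9 (0.923). Among the members themselves Hamp and Tfr2 had r = 0.897, Cp and Atp7b 0.85, Trf and Cp 0.843, Tfrc and Slc40a1 -0.667, and the ferritin subunits Fth1 and Ftl1 0.0417, the pair that shares 1 protein shell but whose RNA levels did not follow each other here.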

How the data were processed

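Total RNA was extracted with a column kit and stranded mRNA libraries were sequenced, per the labels' protocols. The authors deposited, per transcript, expected counts and FPKM (scaled by transcript length and assigned reads) for 30710 RefSeq transcripts. The submitters' processing notes name BWA 0.7.12 and the mm9 build; for the counting program, its settings and its annotation, nothing is given in the sources used here. FPKM recomputed from these counts came within 0.46% of the deposited values for transcripts with 1000 or more counts. Transcripts were named through RefSeq (30190) or GENCODE (181), and 339 matched neither (0.61% to 3.21% of reads per library). Expected counts were summed per gene and rounded, and 16499 of 23712 genes passed edgeR's filterByExpr. One edgeR 4.0.16 quasi-likelihood fit (R 4.3.3, TMM, 19 residual degrees of freedom) over all 28 libraries gave 21 comparisons, two-sided, Benjamini-Hochberg adjusted over all genes in each, called at an adjusted p under 0.05, and was tested on simulated data. With 2 to 6 libraries per group the precision is that of the shared spread, and intervals cover counting error only. Alternatives were DESeq2 1.42.0, limma 3.58.1 on log2(FPKM + 1) for genes at 1 FPKM or more in 2 or more libraries, other scalings and filters, a replicate block, an Rn7sk set term (sets divided at 10 CPM), each set alone, the compared groups alone, and each library left out; library totals without TMM were added after seeing the data. The members and gene lists were chosen with earlier results of these data known. All 9 members are named; of each list, up to 4 called genes of smallest adjusted p and up to 4 of highest CPM may be named, and the 3 genes most correlated with each member. Some of the latter are not reported here. Replicates were compared by a chi-square test of their counts and none were duplicates (lowest value per degree of freedom 10.1).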

Additional observations from a re-analysis of the deposited data

Results flagged for a closer look

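Of 26 tests of groups of 4 to 10 libraries for a library far from the others, 4 stood out, where chance gives about 1 in 20. All 4 concern the hormone and its sensor, which are near 0 outside Hep. Hamp stood at 16.9 CPM in iHep_Foxa1 replicate 6, where the next library held 0.348 CPM. Hamp stood at 0.361 CPM in iHep_Foxa3 replicate 6, where the next library held 0.0997 CPM. Tfr2 stood at 7.34 CPM in iHep_Foxa1 replicate 5, where the next library held 0.783 CPM, and at 0.511 CPM in iHep_Foxa2 replicate 1, where the next held 0.0322 CPM. The 2 genes stood out in different libraries of iHep_Foxa1.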

How the results depend on the processing

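Of 74 member differences called, all 74 kept their call with DESeq2 size factors, without the filter on low counts and on each gene's most abundant transcript, as did 66 of 66 with DESeq2's Wald test and 11 of 11 in the high Rn7sk set alone. The rest of the 74 got no adjusted p from DESeq2's Wald test, so it neither kept nor lost them. It called 7 members in Hep against MEF, where edgeR called 8. In iHep_Foxa1, iHep_Foxa2 and iHep_Foxa3 against Hep it called 5, 4 and 6, where edgeR called 7, 6 and 7. On library totals 68 kept it, with the compared groups alone 67, with limma on FPKM 63, with the Rn7sk set as a term 65, and in the low set alone 46 of 56, and 54 kept it without each single library. With the replicate number as a block 67 kept it. The lost ones were Fth1 in iHep_Foxa1 and iHep_Foxa3 against MEF (1.0 and 0.96), Slc40a1 in iHep_Foxa2 against MEF and 48h_Foxa2, Tfrc and Fth1 in iHep_Foxa1 against iHep_Foxa2 (0.99 and -0.82) and Ftl1 in iHep_Foxa2 against iHep_Foxa3 (-0.79). The numbers do not pair the libraries, as same-numbered libraries correlated from -0.201 to 0.307 in their deviations from the group means. Differences that changed sign were Tfrc in Hep against MEF (-0.02 on library totals, -0.04 with limma); Ftl1 against MEF in 48h_Foxa1, 48h_Foxa2 and 48h_Foxa3 (-0.46, -0.48 and -0.36 with the set term), in iHep_Foxa1 (-0.01 with the block, -0.39 with the set term, -0.48 in the low set) and in iHep_Foxa3 (-0.91 and -0.78 with the set term and in the low set); Fth1 in iHep_Foxa3 against MEF (-0.32 in the low set); and Ftl1 in iHep_Foxa2 against 48h_Foxa2 (0.04 with the set term) and against iHep_Foxa3 (0.47 with the set term, 0.31 in the low set). The causes were not tested.

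Counts of members called moved as follows. With the compared groups alone they were 4, 4 and 4 for the 48h groups against MEF, 0 for iHep_Foxa1 against iHep_Foxa2 and against iHep_Foxa3, and 7 for 48h_Foxa3del2 against 48h_Foxa3, and 6 with iHep_Foxa3 as its comparator. With DESeq2's Wald test they were 1 and 1 for 48h_Foxa1 and 48h_Foxa3 against MEF, and 4 and 3 for iHep_Foxa1 against iHep_Foxa2 and iHep_Foxa3, and with limma 0 for 48h_Foxa2 against MEF. For iHep_Foxa1 against iHep_Foxa2 they were 4 on the most abundant transcript and 0 with the block, the set term or the low set. For iHep_Foxa1 against iHep_Foxa3 they were 2 with the block, 3 with the set term, 0 in the low set and 4 in the high set. For iHep_Foxa2 against iHep_Foxa3 they were 2 with the set term and 2 in the low set, for iHep_Foxa3 against MEF 3 in the low set, and for 48h_Foxa3del2 against 48h_Foxa3 3 with the set term. Leaving out 1 library at a time gave 0 to 0 for 48h_Foxa2 against MEF, 3 to 5 for iHep_Foxa2 against MEF, 3 to 7 for iHep_Foxa2 against 48h_Foxa2, 1 to 5 for iHep_Foxa1 against iHep_Foxa2, 1 to 2 for iHep_Foxa1 against iHep_Foxa3 and 1 to 1 for 48h_Foxa3del2 against MEF.

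Hamp, Tfr2 and Atp7b rest on few counts in MEF and 48h libraries, which limits their folds there.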
